A study of Mus musculus with 8 samples.

Results

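The genes described here are 10 negative-feedback and output genes of the Ras-MAPK pathway: Dusp4, Dusp5, Dusp6, Spry1, Spry2, Spry4, Spred1, Spred2, Etv4 and Etv5. They were chosen by gene symbol, and all 10 were found among the 18860 genes of the deposited tables. RNA came from leukaemia cells of the bone marrow of moribund C57BL/6 mice, labelled as acute myeloid cells, with 8 libraries in 2 genotypes of 4 libraries each. The 11B3-deleted group is labelled 11B3fl/p53fl, meaning that 1 copy of chromosome 11 carries a conditional deletion of 11B3, a segment that includes Trp53, opposite a conditional Trp53 allele. The p53-loss-only group is labelled p53fl/fl, with the conditional Trp53 allele on both chromosomes. Both groups also carried Vav1-Cre, a recombinase under a promoter of the blood lineage, together with hairpin RNAs directed at Nf1 and Mll3. Every comparison is therefore between leukaemias that share a hairpin against Nf1, and no library without it was analysed here. The labels name 4 lines per genotype without stating whether each is from its own animal, and p-values here describe only how these libraries vary. The sources used here do not state whether normal marrow cells were removed.

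Ras proteins relay signals from growth factor and cytokine receptors through Raf, MEK and ERK kinases, and neurofibromin, the product of Nf1, switches Ras off by speeding its hydrolysis of GTP. Active ERK induces genes that restrain the same pathway. Among these, Dusp4, Dusp5 and Dusp6 encode phosphatases that remove the activating phosphates from ERK, Dusp6 in the cytoplasm and the others in the nucleus. Sprouty proteins act upstream of ERK, and Spred proteins bring neurofibromin to the membrane. Etv4 and Etv5 encode ETS-family transcription factors of the PEA3 group that are induced by ERK signalling and widely read as its output. In myeloid leukaemia, loss of NF1 is one of several lesions that act on this pathway.

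The recovered depth was 30502718 to 35719495 reads per library. Values are the deposited ones, a read count scaled for library size with 1 added, and 3 reads correspond to values of 3.663 to 4.29. Trp53, targeted in both groups, read 392.5, 387.3, 266.6 and 189.2 in 11B3-deleted replicates 1 to 4 versus 425.3, 577.1, 367.2 and 300.2 in the other genotype, with overlap (log2 difference -0.45, 95% interval -1.18 to 0.27). Values per gene do not separate retained from deleted exons, so they do not check the alleles. The hairpin target Mll3 differed by 0.02 (95% interval -0.38 to 0.41). The hairpin target Nf1 ranged from 404.8 to 820.3 over the 8 libraries and did not differ detectably between genotypes (log2 difference -0.17, 95% interval -0.74 to 0.4), which gives no measure of the knockdown since both groups carry the hairpin. None of the markers was at 0 in all libraries. All 9 myeloid identity genes that had a row passed the filter on low values. Their summed level was 234700 to 779300 in the 11B3-deleted and 323600 to 556900 in the p53-loss-only libraries. Mpo (75329.0 to 414041.1) and Lyz2 (103707.3 to 274936.3) made up most of that sum in every library. Cd33 ranged from 280.0 to 9503.4 and Fcgr3 from 980.7 to 19296.4. Of these 9, 8 had a lower mean in the 11B3-deleted group (median log2 difference -0.39), as had 7 of 11 monocyte and macrophage markers (-0.56), while 7 of 8 stem and progenitor markers (1.96), all 14 erythroid (1.55), all 10 B cell (1.68), 7 of 8 dendritic (1.53), all 10 stroma and endothelium (0.62) and all 12 cell cycle markers (0.28) had a higher one, with none called. Also higher, with none called, were 7 of 8 megakaryocyte markers (0.55) and 4 of 7 mast cell, basophil and eosinophil markers (0.79). Of granulocyte markers 5 had a higher and 7 a lower mean (-0.11), and of T and NK cell markers 5 and 5 (-0.04). Over all genes tested, 7573 had a higher and 7106 a lower mean (median 0.01). What part the markers have in the levels of the 10 genes was not tested. Summed B cell markers, all 10 of them tested, reached 48900 in 11B3-deleted replicate 3 and lay between 474.8 and 2570 in the other libraries. Summed erythroid markers, all 14 tested, ranged from 13580 to 214300 in the 11B3-deleted libraries, highest in replicate 1, and from 2917 to 52720 in the p53-loss-only libraries, lowest in replicate 3. In bulk RNA, fewer cells of a type and less RNA per cell cannot be told apart.

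None of the 10 genes differed detectably between the genotypes, whereas several varied by more than 10 times from library to library. With limma, 0 of the 10 passed at an adjusted p of 0.05 over all 14679 genes tested, where 2 genes or 0.0136% passed, and 0 of the 10 had an unadjusted p under 0.05, against 3.56% of all genes tested. The count was also 0 with edgeR, DESeq2 and limma voom. In no gene did the 4 libraries of one genotype lie wholly above or below those of the other, against 2.15% of genes tested. All 10 passed the filter, 10 or more in 4 or more libraries. Of the 10, 5 had a higher and 5 a lower mean in the 11B3-deleted group, with a median log2 difference of 0.03, beside 0.01 over all genes tested.

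**Figure D1:**
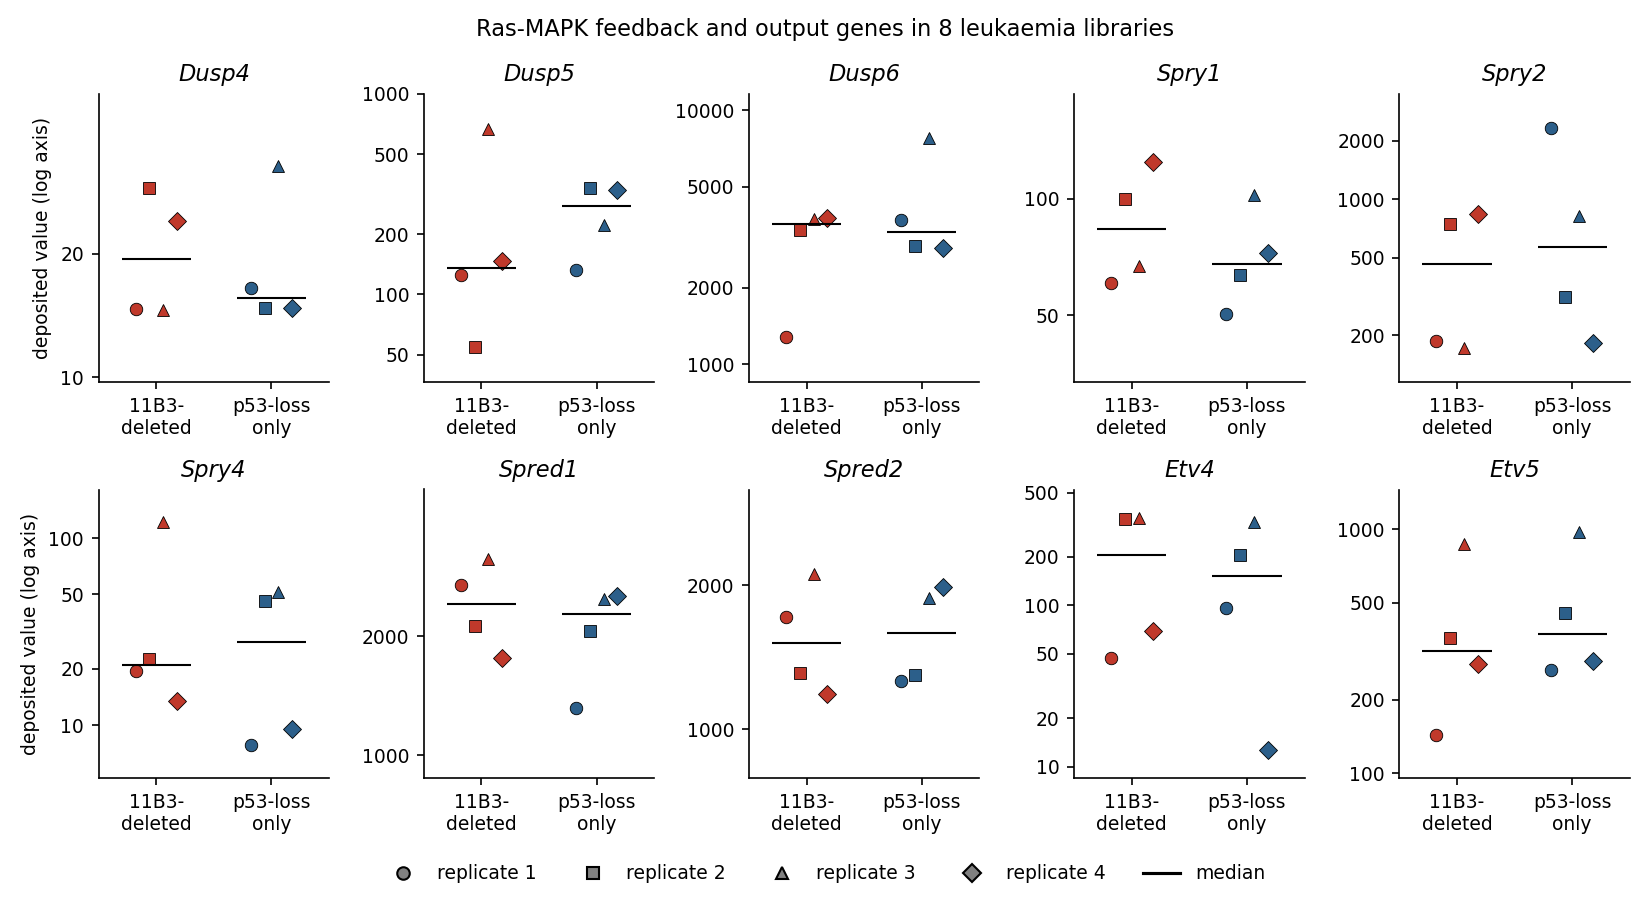
Deposited value of each of the 10 genes (log axis) in the 4 11B3-deleted and 4 p53-loss-only libraries, with a symbol for each replicate and a line at each group's median. The groups overlap in all 10 genes, and Etv4 spans 12.7 to 349.9 while Spred2 spans 1185.0 to 2114.0.

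Windows before the transcription start are shown for Dusp5, whose window holds CArG boxes, for Dusp6, the gene with the highest level per length, and for Spred1, Spred2 and Spry2, whose pairs gave the highest and the lowest r. RefSeq windows on GRCm38.p6, another build than the mm9 of the submitters' notes, were matched to 7 of the 10 genes, and the 250 bases before the start are given, 5′ to 3′ on the strand of the gene. They lie at chr19:53528895-53529144 (+) for Dusp5, chr10:99262981-99263230 (+) for Dusp6, chr2:117120821-117121070 (+) for Spred1, chr11:19924192-19924441 (+) for Spred2 and chr14:105896820-105897069 (-) for Spry2. The bases just after the start were found near the beginning of a GENCODE transcript of the gene for each of these windows except that of Spred1. The start of the Spred1 window is thus not backed by such a transcript. Capitals mark the ETS core GGAAG, or CTTCC where it is on the other strand, and CArG boxes, the sites bound by serum response factor.
Dusp5: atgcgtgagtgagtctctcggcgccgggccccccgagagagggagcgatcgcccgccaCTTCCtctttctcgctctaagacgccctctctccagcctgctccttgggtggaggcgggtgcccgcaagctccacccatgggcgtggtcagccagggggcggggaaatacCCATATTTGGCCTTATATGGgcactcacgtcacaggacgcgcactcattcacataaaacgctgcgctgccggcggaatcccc
Dusp6: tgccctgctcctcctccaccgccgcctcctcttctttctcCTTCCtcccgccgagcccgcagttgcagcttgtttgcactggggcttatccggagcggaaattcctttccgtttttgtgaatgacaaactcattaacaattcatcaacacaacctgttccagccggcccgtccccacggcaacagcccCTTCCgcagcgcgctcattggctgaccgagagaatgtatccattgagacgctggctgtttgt
Spred1: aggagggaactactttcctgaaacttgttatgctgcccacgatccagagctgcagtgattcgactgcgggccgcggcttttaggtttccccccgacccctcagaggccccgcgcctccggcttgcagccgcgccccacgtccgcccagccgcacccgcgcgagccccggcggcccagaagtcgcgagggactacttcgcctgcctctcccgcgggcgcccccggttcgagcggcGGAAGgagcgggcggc
Spred2: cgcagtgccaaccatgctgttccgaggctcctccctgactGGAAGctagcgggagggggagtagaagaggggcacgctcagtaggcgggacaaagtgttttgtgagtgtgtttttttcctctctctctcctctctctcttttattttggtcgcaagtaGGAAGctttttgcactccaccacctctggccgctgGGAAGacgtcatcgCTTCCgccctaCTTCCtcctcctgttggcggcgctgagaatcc
Spry2: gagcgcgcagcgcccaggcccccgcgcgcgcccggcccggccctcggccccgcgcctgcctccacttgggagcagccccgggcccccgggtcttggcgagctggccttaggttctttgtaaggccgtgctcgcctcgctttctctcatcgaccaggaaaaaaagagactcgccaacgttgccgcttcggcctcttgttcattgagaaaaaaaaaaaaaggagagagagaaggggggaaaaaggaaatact

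The Dusp5 window holds 2 CArG boxes side by side, CCATATTTGG from 82 to 73 bases before the start and CCTTATATGG from 72 to 63. At least 1 CArG box occurs in 1.47% of the 32841 windows of this length in the table, and at least 2 in 0.0183%, or 6 windows. None of the other member windows searched has one. GGAAG on either strand occurs 5 times in the Spred2 window, 2 times in that of Dusp6 and 1 time each in those of Spred1 and Dusp5. Of 2 windows for Etv5, not shown, 1 holds it 2 times and the other does not. The motif is common, being present in 64.1% of windows. The Spry2 and Spry1 windows do not contain it. The AP-1 motif TGANTCA on either strand, present in 6.75% of windows, is in none of the members' windows that were searched. The windows of Spred1 and Spred2, the pair with the highest r over the libraries, both hold GGAAG, 1 and 5 times. Neither holds a CArG box or the AP-1 motif. These matches are descriptions of sequence within 250 bases, not of binding.

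Of Dusp4, Dusp5 and Dusp6, Dusp6 had the most reads in every library. In replicates 1 to 4 of the 11B3-deleted group Dusp6 read 1275.1, 3390.8, 3723.0 and 3761.5, and in those of the p53-loss-only group 3709.3, 2931.2, 7764.4 and 2872.0. Apart from a low value in 11B3-deleted replicate 1 and a high one in p53-loss-only replicate 3, the other 6 libraries lay close together across both genotypes. The difference was -0.5 on the log2 scale (SE 0.43, 95% interval -1.47 to 0.47, limma adjusted p = 0.996), and -0.12 without 11B3-deleted replicate 1 or -0.17 without p53-loss-only replicate 3. That low library had the highest summed erythroid and the lowest summed granulocyte markers (181300, against 297100 to 739500 in the others). Their part in the Dusp6 value was not tested.

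Dusp5, a nuclear ERK phosphatase, read 125.0, 54.8, 669.8 and 147.4 with 11B3 deleted, replicates 1 to 4, versus 132.1, 338.6, 221.4 and 330.1 with p53 loss only. Its highest and its lowest value both fell in the 11B3-deleted group, so the group ranges were nested. The log2 difference was -0.57 (SE 0.7, 95% interval -2.15 to 1.02, limma adjusted p = 0.996). The highest library, 11B3-deleted replicate 3, was the one with 48900 of summed B cell markers. Without it the log2 difference was -1.25, with an unadjusted limma p of 0.0343 and an adjusted p of 1. Without 11B3-deleted replicate 2 it was -0.05, and edgeR on the recovered reads gave -0.03.

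Dusp4, also nuclear, had few reads, at 14.7, 29.0, 14.6 and 24.1 against 16.5, 14.8, 32.8 and 14.8. These values rest on 13 to 29 reads per library. 3 libraries, 11B3-deleted replicates 2 and 4 and p53-loss-only replicate 3, stood above the other 5, but the exact Poisson intervals (95%, counting error only) of 16.1 to 34.8 in 11B3-deleted replicate 4 and 9.88 to 26.2 in p53-loss-only replicate 1 overlap. Its log2 difference of 0.08 (95% interval -0.89 to 1.06) changed sign when any 1 of 4 libraries was left out, at -0.1 without 11B3-deleted replicate 2, -0.02 without replicate 4, and -0.03 without p53-loss-only replicate 2 or 4.

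Per length, Dusp6 dominated this set in every library. Scaled reads per kilobase of exon were 1170 ± 588 for Dusp6, 102 ± 79.3 for Dusp5 and 6.99 ± 2.71 for Dusp4 (SD, n = 8 libraries). Dusp6 made up 81.2% to 97.1% of the summed level per kilobase of the 3 genes, Dusp5 1.95% to 18.5% and Dusp4 0.338% to 1.08%. Among all 10 MAP kinase phosphatase genes listed, Dusp6 had the highest level per kilobase in 5 libraries, Dusp1 in 2 and Dusp7 in 1. Dusp1, which acts mainly on p38 and JNK and is an immediate-early gene, held 8.87% to 41.6% of that sum. Dusp7, another cytoplasmic ERK phosphatase, held 12.1% to 35%.

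The Sprouty genes varied unevenly. Spry2 read 186.5, 745.7, 172.6 and 837.9 with 11B3 deleted, replicates 1 to 4, versus 2331.4, 313.8, 819.0 and 182.0 with p53 loss only, a 13.5-fold range. Libraries near 180 and near 800 occurred in both genotypes, and p53-loss-only replicate 1 stood above all others. The log2 difference was -0.61 (SE 0.85, 95% interval -2.53 to 1.31, limma adjusted p = 0.996) and turned to 0.06 without that library. It was -0.91 with edgeR, -0.9 with DESeq2 and -1.36 with voom and sample weights, none of which called it. Spry2 was the most abundant Sprouty gene per kilobase in all 8 libraries, at 63.2% to 98.4% of the sum of the 3 genes.

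Spry1 was at 60.6, 100, 66.9 and 124.4 against 50.5, 63.4, 101.9 and 72.3, a 2.46-fold range with no library far from the rest. Its log2 difference was 0.27 (95% interval -0.57 to 1.12), and it was 0.09 when 11B3-deleted replicate 4 was left out, 0.12 when p53-loss-only replicate 1 was, and 0.46 when p53-loss-only replicate 3 was. Spry4 was at 19.5, 22.5, 121.2 and 13.4 against 7.8, 46.0, 51.4 and 9.5, a 15.5-fold range on 7 to 124 reads. The highest library was again 11B3-deleted replicate 3, whose exact Poisson interval of 101 to 144 (95%, counting error only) lay above that of p53-loss-only replicate 3, 37.9 to 68.3. The log2 difference of Spry4 was 0.51 (95% interval -1.47 to 2.49) and turned to -0.18 without 11B3-deleted replicate 3. Whether the B cell markers of that library bear on its Dusp5 and Spry4 values was not tested.

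The Spred genes were the steadiest. Spred1 read 2700.5, 2122.1, 3128.8 and 1763.6 with 11B3 deleted, replicates 1 to 4, versus 1313.8, 2067.0, 2481.3 and 2519.5 with p53 loss only. The lowest value was that of p53-loss-only replicate 1 and the highest that of 11B3-deleted replicate 3, with broad overlap between them. The log2 difference was 0.22 (SE 0.26, 95% interval -0.37 to 0.82), and 0.02 without p53-loss-only replicate 1. Spred2 was at 1715.4, 1311.7, 2114.0 and 1185.0 against 1261.4, 1297.3, 1879.3 and 1978.5, a 1.78-fold range. Its log2 difference of -0.03 (SE 0.24) had the narrowest 95% interval of the 10, from -0.58 to 0.52. The sign turned without 11B3-deleted replicate 2 (0.05) or 4 (0.1) or p53-loss-only replicate 3 (0.06) or 4 (0.08). Per kilobase both contributed about equally, Spred1 37.5% to 50.7% and Spred2 43% to 52.8% of the sum with Spred3, which was the least abundant of the 3 in every library (1.8% to 9.72%). Spred2 and Etv4 lie on chromosome 11 but outside the 11B3 interval in the GRCm38 annotation.

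Etv4, an ETS factor, had the widest range of the 10 genes. It read 46.9, 342.1, 349.9 and 69.3 with 11B3 deleted, replicates 1 to 4, versus 97.1, 206.5, 330.0 and 12.7 with p53 loss only, a 27.5-fold range. 3 libraries near 340 came from both genotypes, and p53-loss-only replicate 4 stood alone at the bottom. The log2 difference was 0.55 (SE 1.08, 95% interval -1.88 to 2.98) and became -0.42 without that library, and 0.32 with edgeR. Etv5 was at 143.5, 358.3, 870.4 and 279.7 against 265.1, 454.2, 971.4 and 288.5. Replicate 3 of each genotype was the highest of its group. The log2 difference was -0.36 (SE 0.59, 95% interval -1.69 to 0.98), and 0.05 without 11B3-deleted replicate 1 or 0.04 without p53-loss-only replicate 3. Etv5 exceeded Etv4 per kilobase in 7 of 8 libraries, and Etv1, the remaining PEA3 gene, held 0.336% to 3.56% of their sum.

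**Figure D2:**
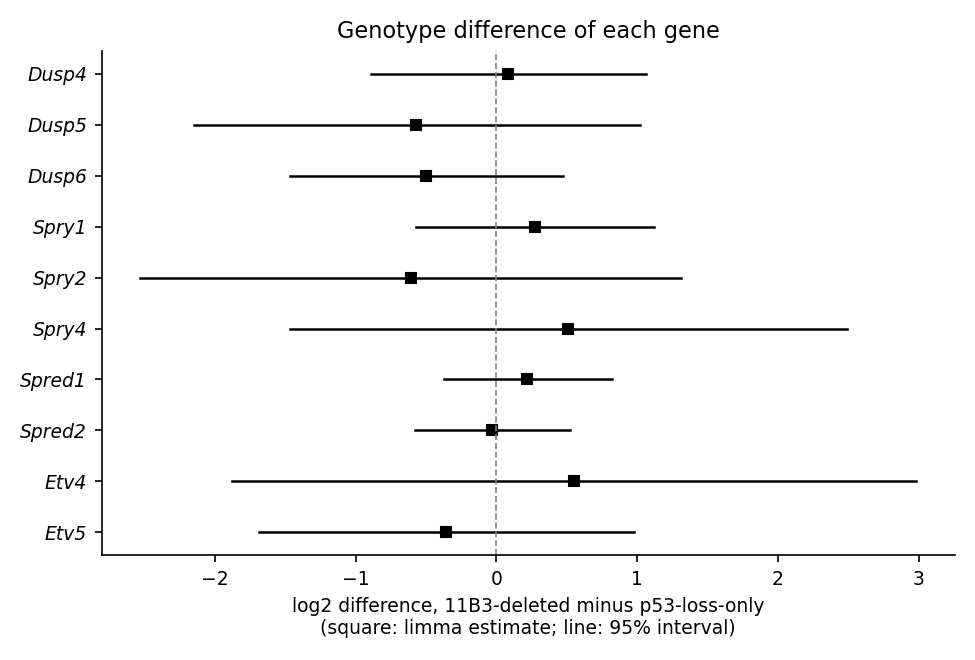
Log2 difference of each gene, 11B3-deleted minus p53-loss-only (x axis), as estimated by limma (squares), with 95% intervals (lines). All 10 intervals include 0, the narrowest being that of Spred2 (-0.58 to 0.52) and the widest that of Etv4 (-1.88 to 2.98).

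The intervals set how far these results go. For Spred1 and Spred2 a log2 difference of 1 in either direction lay outside the interval. For Dusp5, Spry2, Spry4 and Etv4 changes beyond 1 in both directions lay inside the interval.

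The genes were ordered by level per length. Dusp6 was above Spred2 in all 8 libraries (mean log2 difference per kilobase 1.65, SD 0.78). Spred2 at 345 ± 80.2, Spry2 at 334 ± 346 and Spred1 at 333 ± 83.8 scaled reads per kilobase (SD, n = 8) did not differ beyond their spread, Spry2 varying much more than the others. Spred1 was above Etv5 in all 8 libraries (1.81, SD 0.87). Etv5 at 110 ± 73.7, Dusp5 at 102 ± 79.3, Etv4 at 58.3 ± 46.1 and Spry1 at 27.2 ± 8.82 were ordered by their means, but neighbours exchanged places between libraries. Spry1 was above Spry4 in 7 of 8 libraries (2.43, SD 1.45). Spry4 at 7.45 ± 7.97 and Dusp4 at 6.99 ± 2.71 had the lowest means, Dusp4 being the higher of them in 6 of 8 libraries.

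**Figure D3:**
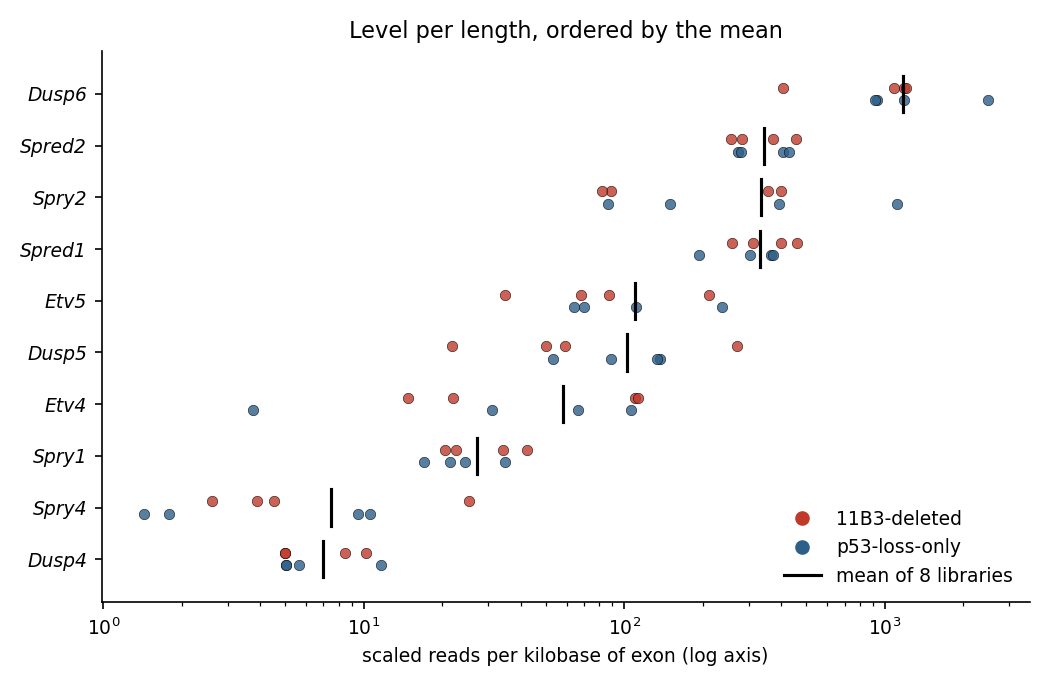
Scaled reads per kilobase of exon (x axis, log) for each gene in the 8 libraries, coloured by genotype, with a line at the mean; genes are ordered by that mean. Dusp6 (mean 1170) stands highest and Dusp4 (mean 6.99) lowest, and points of both genotypes are mixed in every row.

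The genes differed in how widely they varied between libraries. The SD of the log2 value over the 8 libraries was 1.71 for Etv4, 1.37 for Spry2, 1.35 for Spry4 and 1.11 for Dusp5, above that of 96.1%, 92.8%, 92.6% and 88.2% of all genes tested. Etv5 (0.92) and Dusp6 (0.71) were also above the median SD of 0.441. Spry1 (0.45) was near it, and Spred1 (0.39) and Spred2 (0.33) were below it. Spry4 and Dusp4 (0.49) rest on few reads.

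Seen by library, p53-loss-only replicate 3 had all 10 genes above their own mean over the 8 libraries, with a median of 0.8 on the log2 scale. In 11B3-deleted replicate 3, 7 of the 10 were above (median 0.48). In 11B3-deleted replicate 1 and p53-loss-only replicate 1, 8 of the 10 were below, with medians of -0.52 and -0.41. The exceptions in 11B3-deleted replicate 1 were Spred1 and Spred2, and those in p53-loss-only replicate 1 were Dusp6 (0.16) and Spry2 (2.33). Each genotype thus held libraries with high and with low levels of the set. The share of all genes tested that lay above their own mean was not computed for any library, so these counts have no background. p53-loss-only replicate 3 also had the most genes at 0 reads, 1054, against 437 to 904 in the others. In p53-loss-only replicate 3, summed erythroid markers were the lowest of the 8 libraries (2917), and those of monocytes and macrophages the highest (365800, against 155100 to 354900). Lyz2 alone was at 233005.8 there. By the mean log2 value of the monocyte and macrophage list, p53-loss-only replicate 1 was higher than replicate 3, at 11.65 against 11.45. The part of these markers in the levels of the 10 genes was not tested.

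**Figure D4:**
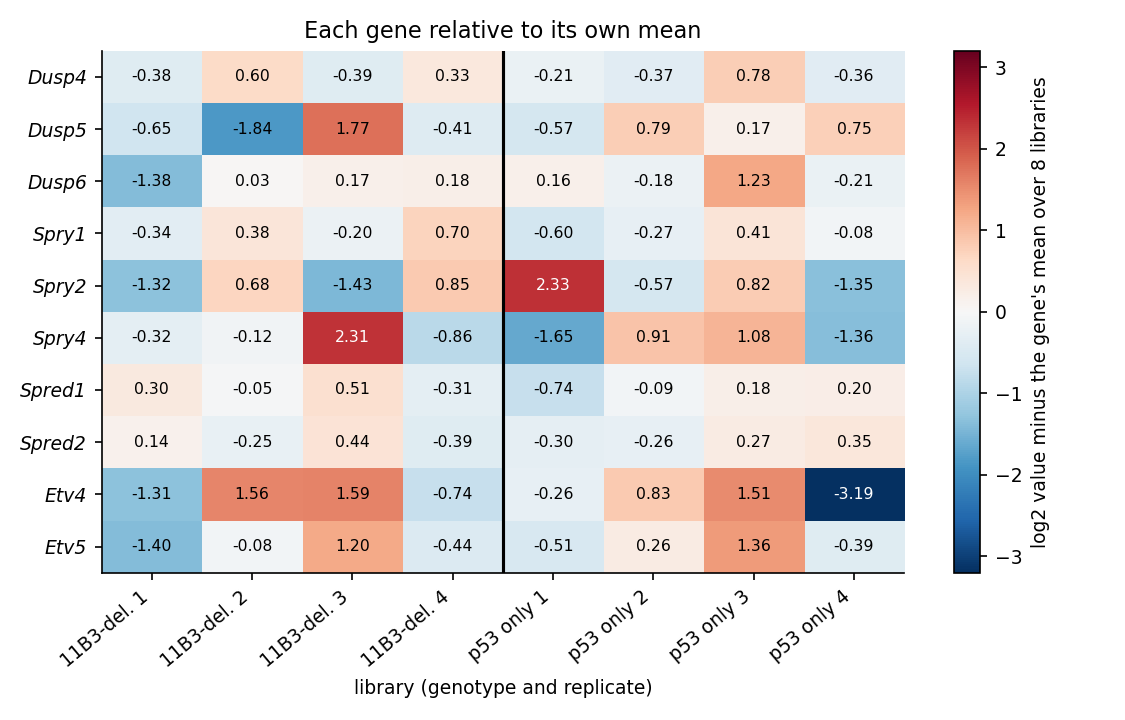
Log2 value of each gene (rows) in each library (columns) minus the gene's mean over the 8 libraries, red above and blue below, with the number in each cell and a line between genotypes. The column of p53-loss-only replicate 3 is above the mean for all 10 genes, from 0.17 for Dusp5 to 1.51 for Etv4.

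Co-variation among the 10 genes was examined over the 45 pairs, as log2 values across the 8 libraries. No pair passed after Benjamini-Hochberg adjustment over the 45 pairs, and 6 had an unadjusted exact permutation p under 0.05. A Pearson r of at least 0.8 occurred in 2 of the 45 pairs, beside 3% of all 107729181 pairs of genes tested. An r of -0.8 or lower occurred in 1, beside 2.68% of all pairs. Those shares do not set the 10 genes apart from other genes.

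The highest r was that of Spred1 and Spred2 (r = 0.834, exact permutation p = 0.00608, adjusted p = 0.148; rho = 0.905, exact permutation p = 0.00456, adjusted p = 0.163). The r was 0.899 without the 2 libraries farthest from the median of Spred1, 0.891 after each genotype's mean was removed, and between 0.77 and 0.922 with each library left out. Spred2 ranked 65 of 14678 tested genes in likeness to Spred1. Spry2 ran opposite to Spred1 (r = -0.854, exact permutation p = 0.00657, adjusted p = 0.148; rho = -0.881, exact permutation p = 0.00724, adjusted p = 0.163), falling to -0.609 without the 2 libraries farthest from the median of Spry2. Depth and size factor are shared by all genes of a library, and rescaling with TMM factors gave r = 0.827 and r = -0.855 for these pairs.

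**Figure D5:**
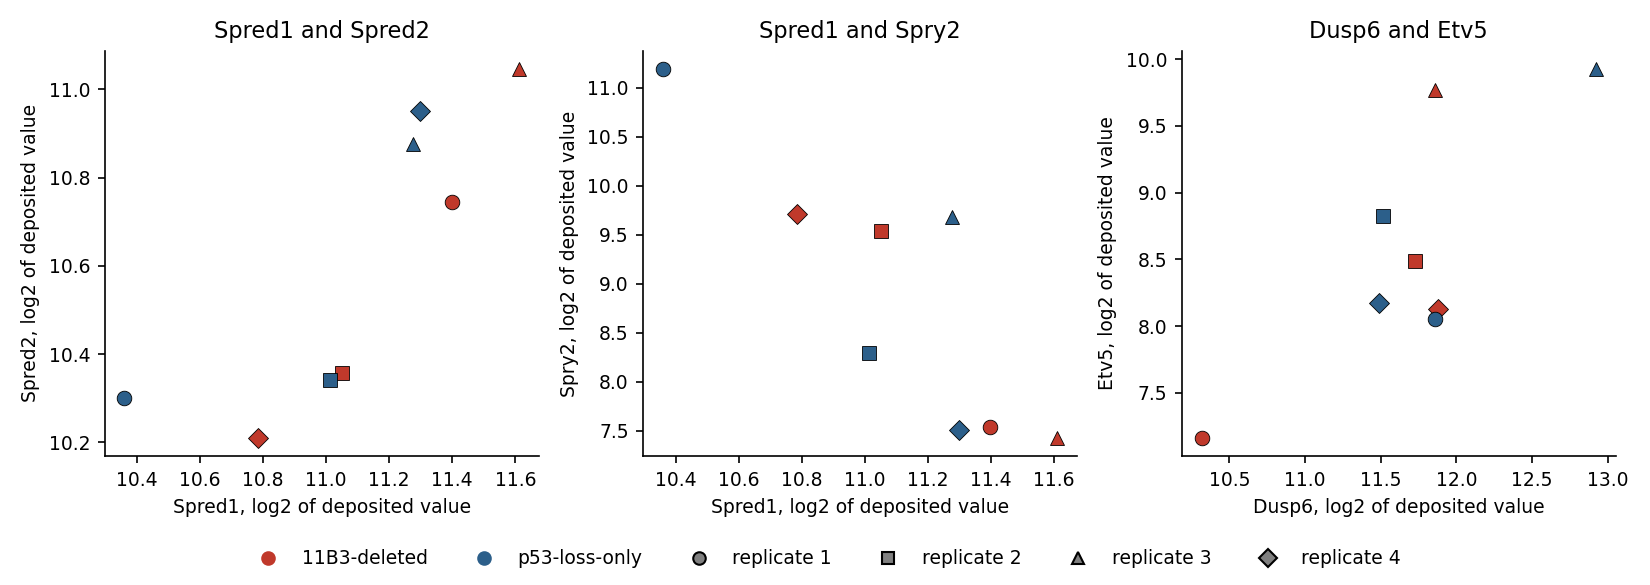
Log2 of the deposited value in the 8 libraries for Spred1 against Spred2, Spred1 against Spry2, and Dusp6 against Etv5, coloured by genotype with a symbol for each replicate. The first panel rises (r = 0.834) and the second falls (r = -0.854) with genotypes mixed along each trend, and in the third 1 library at each end sets the slope.

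The ETS factors were examined with Spry4 and Dusp6, and none of these pairs passed adjustment. Etv5 and Spry4 had r = 0.769 (exact permutation p = 0.0261, adjusted p = 0.235; rho = 0.81, exact permutation p = 0.0218, adjusted p = 0.245), and 0.683 without the 2 libraries farthest from the median of Spry4. Etv4 and Spry4 had r = 0.725 (exact permutation p = 0.04, adjusted p = 0.3; rho = 0.762, exact permutation p = 0.0368, adjusted p = 0.331), and 0.827 without 2 libraries chosen in the same way. Dusp6 and Etv5 had r = 0.797 (exact permutation p = 0.0232, adjusted p = 0.235; rho = 0.524, exact permutation p = 0.197, adjusted p = 0.547), but 0.119 without the 2 libraries farthest from the median of Dusp6, so that relation rests on 11B3-deleted replicate 1 and p53-loss-only replicate 3. Dusp4 and Spry1, the other pair with r of at least 0.8, had their 3 highest values in the same 3 libraries. For that pair r was 0.81 (exact permutation p = 0.0174, adjusted p = 0.235), with Dusp4 on few reads in every library. By rank, rho was 0.619 (exact permutation p = 0.115, adjusted p = 0.547). For Dusp5 and Dusp6 no correlation was detected (r = 0.159, exact permutation p = 0.754, adjusted p = 0.917; rho = 0.19, exact permutation p = 0.665, adjusted p = 0.854).

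Nf1 itself read 718.6, 516.5, 718.3 and 404.8 with 11B3 deleted, replicates 1 to 4, versus 642.8, 820.3, 550.4 and 596.3 with p53 loss only. Of 10 correlations with Nf1, none passed after adjustment over the 10, and Spry1 and Dusp4 had an unadjusted exact permutation p under 0.05. Dusp4, on few reads, had r = -0.722 (exact permutation p = 0.0424, adjusted p = 0.212). Its rho was -0.786 (exact permutation p = 0.0279, adjusted p = 0.14), and r was -0.914 without the 2 libraries farthest from the median of Dusp4. Over all 8 libraries the strongest was that of Spry1, which was negative (r = -0.843, exact permutation p = 0.00818, adjusted p = 0.0818). For Spry1 rho was -0.81 (exact permutation p = 0.0218, adjusted p = 0.14), and r was -0.644 without the 2 libraries farthest from the median of Spry1. Leaving out p53-loss-only replicate 1 gave r = -0.943 (exact permutation p = 0.00139, adjusted p = 0.0139). Dusp6 had r = -0.397 with Nf1 (exact permutation p = 0.311, adjusted p = 0.591; rho = -0.548, exact permutation p = 0.171, adjusted p = 0.57). Etv5 had r = 0.0549 (exact permutation p = 0.9, adjusted p = 0.9; rho = -0.0476, exact permutation p = 0.935, adjusted p = 0.977). How well each library's hairpin worked is not measured by these values.

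Against 12 lists of cell type and cell cycle markers, 0 of 120 correlations passed after adjustment, and 8 had an unadjusted exact permutation p under 0.05. The closest was Spry2 with the mean level of the myeloid identity genes (r = 0.913, exact permutation p = 0.00226, adjusted p = 0.214; rho = 0.929, exact permutation p = 0.00223, adjusted p = 0.134), at 0.97 without the 2 libraries farthest from the median of Spry2. Spred1 went the other way with the same genes (r = -0.748, exact permutation p = 0.0285, adjusted p = 0.646). Spry2 had r = -0.751 with the cell cycle genes (exact permutation p = 0.0363, adjusted p = 0.646; rho = -0.667, exact permutation p = 0.0831, adjusted p = 0.712). Spred2 had a negative correlation with the mean level of T and NK cell markers (r = -0.854, exact permutation p = 0.00357, adjusted p = 0.214; rho = -0.976, exact permutation p = 0.000397, adjusted p = 0.0476). For Spred2 the adjusted p was 0.0238 without p53-loss-only replicate 1 or 2. For B cell markers, 11B3-deleted replicate 3 stood apart from the other libraries, so no r over all 8 is given. By rank, no relation was detected with Dusp5 (rho = 0.333, exact permutation p = 0.428, adjusted p = 1) or Spry4 (rho = 0.262, exact permutation p = 0.536, adjusted p = 1), and r without the 2 libraries farthest from the median of the gene was -0.373 and 0.12.

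The genes most like each member over the 8 libraries were named by the highest Pearson r among all genes tested, as a description. For Dusp6 they were Coro7 (0.961), Tifa (0.953) and Tmem50b (0.953), with lower values by rank (rho of 0.738, 0.786 and 0.81). Spry2 was followed by Gpc2 (0.978), Gpr137 (0.968) and Edil3 (0.966), Spred1 by Scx (0.976), Ppp2ca (0.955) and Ap1s3 (0.924), and Spred2 by Parl (0.958), Galk2 (0.935) and Ints4 (0.934). Those of Etv4 were Ppp3cc (0.982), Pnpla8 (0.943) and Rundc1 (0.933), and those of Etv5 were Moap1 (0.921), Arf1 (0.893) and Acbd4 (0.888). With 14678 genes and 8 libraries, values this high are found for every member, down to 0.938 for the closest gene to Spry4, Usp50, and 0.921 for that to Etv5. Some of these genes rest on few reads, with values of 4.88 to 14.6 for Scx and 7.8 to 17.5 for Usp50, and a lowest value of 2.94 for Edil3.

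The rest of the pathway was taken from lists chosen with earlier results of these data known, and no gene of them passed the limma test over all genes. Of 10 receptor genes, 5 had a higher and 5 a lower mean in the 11B3-deleted group (median log2 difference -0.08). Fgfr1, a fibroblast growth factor receptor, was at 213.8, 301.2, 71.8 and 183.8 against 66.1, 143.2, 20.7 and 23.4 (log2 difference 1.88, SE 0.7, limma adjusted p = 0.996). Il3ra, Csf2ra and Csf1r, receptor genes of interleukin 3, GM-CSF and M-CSF, differed by -0.9 (SE 0.45), -0.69 (SE 0.41) and -0.56 (SE 0.39). Of 12 adaptors and exchange factors 9 had a higher mean (median 0.13). The smallest p in that list was that of Sos1, an exchange factor that loads Ras with GTP, at 0.48 (SE 0.19, limma adjusted p = 0.996) with no overlap between the groups. Of 15 tested Ras, Raf, MEK and ERK genes 7 were higher and 8 lower (median -0.07), with Mapk3, which encodes ERK1, at -0.42 (SE 0.18). Among 10 Ras GTPase-activating proteins 4 were higher and 6 lower (median -0.14), with Rasa4 at -0.72 (SE 0.31) and Rasa2, whose groups did not overlap, at 0.33 (SE 0.16).

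Of 17 other targets of ERK tested, 15 had a lower mean in the 11B3-deleted group (median log2 difference -0.58), beside 7106 of all 14679 genes tested (median 0.01). Groups did not overlap in 2 of the 17, beside 2.15% of all genes tested. Whether this list differs from the 10 genes was not tested. These were the AP-1 genes Fos (-2.42, SE 0.44, limma adjusted p = 0.425) and Fosl1 (-1.07, SE 0.41). Fos was at 1415.7 to 1707.9 in the 11B3-deleted and at 3237.2 to 18910.6 in the p53-loss-only libraries. Ccnd1, which encodes cyclin D1, differed by -0.8 (SE 0.37) and the growth factor gene Hbegf by 0.79 (SE 0.4), the latter at 5.3 to 15.0 in all libraries. Among the 7 other MAP kinase phosphatases 4 were higher and 3 lower, with Dusp1 at -1.29 (SE 0.41, limma adjusted p = 0.996), from 890.3 to 1457.0 against 1304.4 to 4788.1. Of the remaining family members, Etv1 differed by -0.78 (SE 0.72) and Spred3 by -0.5 (SE 0.53).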

How the data were processed

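Total RNA of 8 leukaemia libraries was sequenced, and STAR, HTSeq, DESeq and the build mm9 appear in the submitters' processing notes with no role or version. The deposited values are a signal per gene, which the values themselves show to be 1 plus a whole multiple of a step fixed in each library, so the authors' read count divided by a size factor plus 1. Subtracting 1 and dividing by that step made 100% of values whole reads (tolerance 0.02). The edgeR test run on these recovered reads called 1 gene. Library totals set the precision of genes with few reads, and Poisson intervals cover counting error only, since no molecular identifiers are named.

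Groups were taken from titles. The main test was limma with a mean-variance trend on log2 of the deposited values, whose added 1 served as the pseudocount and understates folds of low genes. Genes at 10 or more in at least 4 libraries were tested (14679), with Benjamini-Hochberg adjustment, two-sided, and intervals from that fit. Levels per kilobase used the value less 1 and the union of exons in GENCODE M21 on GRCm38, not the authors' annotation. Correlations used exact permutation over all pairings of libraries, two-sided. The members, lists and tests were chosen with earlier results of these data known. All 10 members are named, with up to 4 genes per pathway list by smallest p and the 3 genes most like each member, of which some are given. Any further gene was picked with its values in view. Alternatives were DESeq2, edgeR, voom with sample weights, TMM factors, a constant of 5, 2 filters, the replicate number as a block and each library left out. The procedures were tested on simulated data. Software comprised limma 3.58.1, edgeR 4.0.16 and DESeq2 1.42.0 in R 4.3.3, and Python 3.11.15. Strand use in counting and the handling of reads shared by gene copies were not given in the sources used here.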

Additional observations from a re-analysis of the deposited data

Results flagged for a closer look

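In 20 groups of 4 libraries, 10 genes in each genotype, the highest or lowest library was compared with the others on the log2 scale. It was flagged when its gap to the nearest library exceeded 82.9% of the group's range, which chance gives in about 1 of 20 groups. Dusp6 in 11B3-deleted replicate 1, at 1275.1, lay below the other 3 libraries of its group, which were between 3390.8 and 3761.5. Dusp4 in p53-loss-only replicate 3, at 32.8, lay above the other 3, which were between 14.8 and 16.5 on 13 to 16 reads.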

How the results depend on the processing

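The count of members past the threshold was 0 in the main analysis and in all 16 alternatives to it that give an adjusted p. The 2 other filters, the replicate block and the exact permutation test keep each log2 difference by construction and say nothing of its sign. Under the others 16 values reversed. Reversals came with voom and sample weights in Dusp5 (0.02), Spred2 (0.09) and Etv4 (-0.04), and otherwise with a library left out. With each library left out, log2 differences ranged from -0.1 to 0.36 for Dusp4, -1.25 to -0.05 for Dusp5, -0.65 to -0.12 for Dusp6, 0.09 to 0.46 for Spry1, -1.16 to 0.06 for Spry2, -0.18 to 0.95 for Spry4, 0.02 to 0.37 for Spred1, -0.18 to 0.1 for Spred2, -0.42 to 1.15 for Etv4 and -0.82 to 0.05 for Etv5. The cause was not tested.

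Over all genes, 2 passed with limma, 58 with DESeq2 (8 higher, 50 lower), 1 with edgeR, 1 with a constant of 5, 0 with voom and 0 to 1 with each library left out. With the replicate number as a block 0 genes passed. Same-numbered libraries did not deviate together (correlations of -0.03, -0.217, -0.414 and -0.243 for numbers 1 to 4), so the numbers name libraries and do not pair them. Correlations with Nf1 gave 0 to 1 calls with each library left out (Spry1, without p53-loss-only replicate 1). Those with marker lists gave 0 to 1, and 1 with Spearman, each time Spred2 with T and NK cell markers. Depth limits Dusp4 and Spry4, with at most 29 and 124 reads per library.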

Other observations

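Epha2, which encodes a receptor tyrosine kinase and is often read with Dusp6, Spry4 and Etv4 as an output of ERK, was named after its values were seen. Epha2 read 1444.0, 1582.9, 447.8 and 1761.0 with 11B3 deleted, replicates 1 to 4, versus 4936.7, 829.4, 11487.0 and 1226.7 with p53 loss only, a 25.7-fold range. The highest value fell in p53-loss-only replicate 3, where all 10 members were above their own mean. The log2 difference between genotypes was -1.25 (SE 0.82, 95% interval -3.1 to 0.6, limma adjusted p = 0.996). Epha2 did not follow Etv5 in 11B3-deleted replicate 3, where Etv5 was at 870.4 and Epha2 at its lowest.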
